A study of Mus musculus with 4 samples.

Results

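The flavin-containing monooxygenase genes Fmo1, Fmo2, Fmo4 and Fmo5 were followed across the livers of 4 genotypes of mice. They were chosen by name: each has a row of the expression table to which the platform annotation gives exactly 1 gene symbol. They are 4 of 19938 genes measured in this way. Liver RNA came from mice lacking both GHR and MDR2 (GHR-/-MDR2-/-, here double-knockout), mice lacking the growth hormone receptor (GHR-/-, GHR-knockout), mice lacking MDR2 (MDR2-/-, MDR2-knockout) and wild-type mice. All were labelled male and 8 weeks old, and livers of 3 mice of a genotype were pooled. Each pool was hybridised to 1 Affymetrix whole-transcript array. Strain, the knocked-out alleles and littermate status are not given in the sources used here. MDR2 is the protein of Abcb4, a transporter that moves phosphatidylcholine into bile, and mice without it develop cholestasis and biliary fibrosis. GHR is the receptor through which growth hormone acts on hepatocytes. The series title asks how growth hormone resistance bears on the fibrosis of cholestasis.

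Flavin-containing monooxygenases sit in the membrane of the endoplasmic reticulum and carry FAD. They take electrons directly from NADPH, without the reductase that serves cytochrome P450 enzymes, hold an activated oxygen on the flavin, and pass an oxygen atom to nitrogen or sulfur atoms of drugs, dietary amines and sulfides. In mouse liver the family is known for sex-dependent members, and Fmo1 is known to be higher in females.

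With no replicate array of any genotype, a difference between pools describes these pools and has no replicate error. As a yardstick, the spread of a typical gene was taken from the departure from additivity of all 10764 genes whose highest array reached an intensity of 100, the median of the rows with 1 symbol. It gave a robust SD of 0.23 on the log2 scale for a difference between a pair of arrays, which is 1.17-fold. It includes real non-additivity, and single genes can be noisier. Median intensity over those rows was 94 to 105 on the 4 arrays, and precision is limited by the small number of arrays. Ghr intensity was 935 in the double-knockout and 1395 in the GHR-knockout pool, against 4485 in the MDR2-knockout and 4944 in the wild-type pool. Abcb4 was 689 in the double-knockout and 663 in the MDR2-knockout pool, against 1346 in the GHR-knockout and 1120 in the wild-type pool. The sources used here do not say whether their probes lie in the deleted parts. The GHR-knockout pool stood apart: Xist, the RNA of the inactive X chromosome of females, was 1400 there, against 17 in the double-knockout, 18 in the MDR2-knockout and 16 in the wild-type pool. Genes of the Y chromosome were measured there too, with Eif2s3y at 680, Kdm5d at 259 and Uty at 308, so this pool carried signal of both kinds, against its label. Each difference of an Fmo gene that uses this pool is therefore set beside the comparison that does not.

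All 4 Fmo genes were above an intensity of 100 on every array, and each was measured by 1 row. They did not move as a group. Fmo2 was higher in both pools without GHR, Fmo5 was higher in both pools without MDR2, Fmo4 was higher in the GHR-knockout pool and Fmo1 was highest in the GHR-knockout and lowest in the double-knockout pool. Over the 4 arrays Fmo2 spanned 2.48-fold, Fmo1 1.72-fold, Fmo4 1.62-fold and Fmo5 1.55-fold. No level is compared here between different genes, because each row has its own probes.

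**Figure D1:**
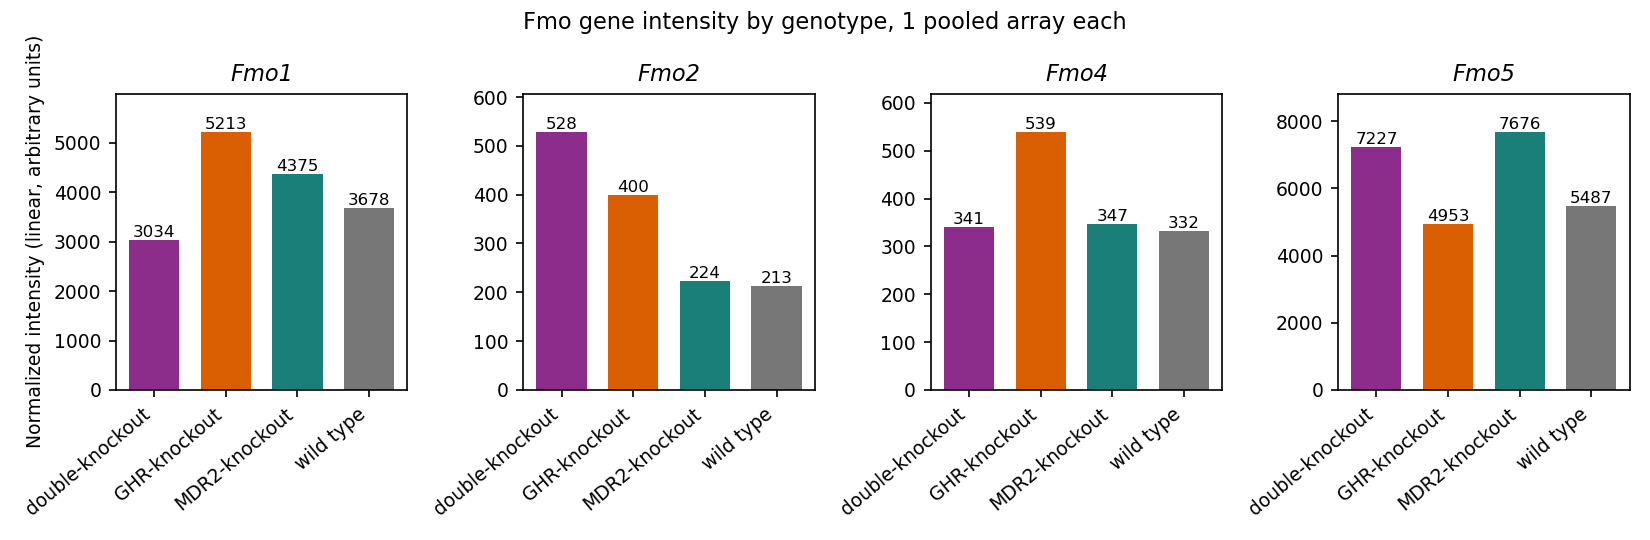
Normalized intensity (vertical axis, linear, starting at 0, a different scale in each panel) of the 4 Fmo genes in the double-knockout, GHR-knockout, MDR2-knockout and wild-type pools; each bar is 1 pooled array with no error bar. Fmo2 is 528 and 400 in the pools without GHR, against 224 and 213 in the pools with it, while Fmo5 is 7227 and 7676 in the pools without MDR2, against 4953 and 5487 in the pools with it.

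Fmo2 encodes an enzyme best known as the lung form of the family in many mammals. Its intensity was 400 in the GHR-knockout pool, against 213 in the wild-type pool, a log2 difference of 0.91 or 1.88-fold. Of the 10052 genes compared between these pools, 1.32% were at least as much higher, and 4.25% were at least 1.5-fold higher. With MDR2 absent, Fmo2 was 528 in the double-knockout pool, against 224 in the MDR2-knockout pool, a log2 difference of 1.24 or 2.36-fold. Of 10524 genes compared there, 1.20% were at least as much higher, and 2.31% were at least 2-fold higher. These comparisons share no array. Xist was 1400 and 16 in the pools of the first and 17 and 18 in those of the second. The part of the Xist-bearing pool in the first Fmo2 difference was not tested. A difference of at least 1.5-fold upwards in both comparisons was met by 133 of 9812 genes, or 1.36%. Both values without GHR lay above both values with it.

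Loss of MDR2 made less difference to Fmo2. It was 224 in the MDR2-knockout pool, against 213 in the wild-type pool, within the robust SD at a log2 difference of 0.07. It was 528 in the double-knockout pool, against 400 in the GHR-knockout pool, at 0.40. The order was therefore double-knockout, GHR-knockout, MDR2-knockout and wild type, with the lowest pair not separated beyond the typical spread. Had the single losses added up on the log2 scale, the double-knockout pool would have stood at 421, and it was measured at 528, a departure of 0.33, close to the robust SD of departures over all genes of 0.32.

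The test across all genes was a limma fit with GHR loss and MDR2 loss as additive factors, which leaves 1 residual degree of freedom. It gave Fmo2 an average effect of GHR loss of 1.07 ± 0.15 on the log2 scale (SE), or 2.10-fold. Its unadjusted limma p was 0.000715, and its Benjamini-Hochberg adjusted p over 10764 genes was 0.0888, which misses the 0.05 threshold. At that threshold limma called 22 genes higher with GHR loss, or 0.204%, and 34 lower, or 0.316%. The average effect of MDR2 loss on Fmo2 was 0.24 ± 0.15 (SE), with a limma adjusted p of 0.410. The variance of each gene was moderated over all genes, and an effect was taken to be equal in both backgrounds.

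**Figure D2:**
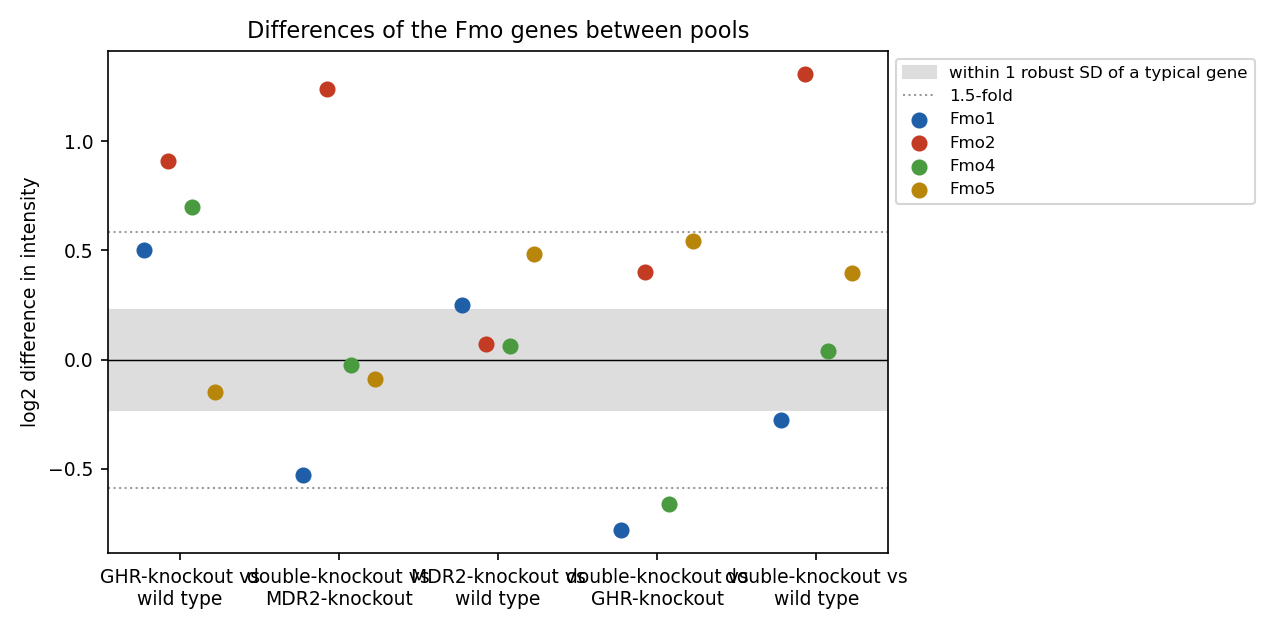
Log2 difference in intensity (vertical axis) of each Fmo gene in the 5 comparisons between pools, 1 point per gene; the grey band is the robust SD of 0.23 of a typical gene and the dotted lines mark 1.5-fold. Fmo2 lies at 0.91 and 1.24 in the comparisons for GHR loss, and Fmo5 at 0.48 and 0.55 in those for MDR2 loss.

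The start regions of Fmo2 are shown because it is the member whose level went with GHR status in both backgrounds. STAT5 is a factor through which growth hormone acts on liver genes, and its part in the Fmo2 level was not tested. RefSeq (GRCm38.p6) lists a pair of start regions for it on the minus strand of chromosome 1, chr1:162898709-162899008 and chr1:162898444-162898743, each from 250 bases before to 50 bases after a transcript start, written 5′ to 3′. Capitals mark a match to a searched motif.
Fmo2 upstream start: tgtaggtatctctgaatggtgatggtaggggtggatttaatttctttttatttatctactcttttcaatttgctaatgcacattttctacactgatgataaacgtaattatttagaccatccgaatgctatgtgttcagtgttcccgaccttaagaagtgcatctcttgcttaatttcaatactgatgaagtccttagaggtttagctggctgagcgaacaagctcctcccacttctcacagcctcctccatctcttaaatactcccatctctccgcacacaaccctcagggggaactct
Fmo2 downstream start: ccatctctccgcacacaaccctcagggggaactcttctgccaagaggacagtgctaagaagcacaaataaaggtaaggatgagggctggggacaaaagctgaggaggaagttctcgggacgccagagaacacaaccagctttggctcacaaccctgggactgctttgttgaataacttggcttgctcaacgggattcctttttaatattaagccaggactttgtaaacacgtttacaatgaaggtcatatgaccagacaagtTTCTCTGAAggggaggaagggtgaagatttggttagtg
The letters searched, on both strands, were TTCNNNGAA for STAT5, ATTGAT for the ONECUT factors, TGACNNNGC for the antioxidant response factor NRF2 and GCGTG for the aryl hydrocarbon receptor. The downstream start region held 1 match, TTCTCTGAA, beginning at base 13 after the start. Over 32851 such regions of RefSeq genes, 8.30% held TTCNNNGAA, 7.54% ATTGAT, 12.4% the NRF2 letters and 32.4% GCGTG. A match of letters is a description of the window and not a measured site. The upstream region, with 41.3% G and C, held none of the 4 motifs.

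The 5 genes whose pattern over the 4 arrays lay nearest to that of Fmo2, by the root mean square difference of mean-centred log2 values among 10468 genes, were Rdh9, Slc15a2, Smim3, Id1 and Cxcl13. Rdh9, a gene of the retinol dehydrogenase family, lay at 0.027 log2 units. Its intensities were 1195 in the double-knockout and 888 in the GHR-knockout pool, against 523 in the MDR2-knockout and 478 in the wild-type pool. The peptide transporter gene Slc15a2 lay at 0.084 and Smim3, a small membrane protein gene, at 0.091. Id1, an inhibitor of DNA-binding transcription factors, was 435 in the double-knockout and 275 in the GHR-knockout pool, against 176 and 168 in the MDR2-knockout and wild-type pools, at a distance of 0.098. Cxcl13, a chemokine that attracts B cells, lay at 0.107. With 4 arrays, many genes can lie close to any pattern.

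Because Fmo2 is known from lung and from cells other than hepatocytes, marker genes of other cells were read beside it. In bulk liver, more cells of a type and more RNA per cell cannot be told apart. All 14 endothelial markers were measured. Their summed intensity was 6840 in the double-knockout and 8779 in the GHR-knockout pool, against 7437 in the MDR2-knockout and 7089 in the wild-type pool. Their median log2 difference was 0.29 between the GHR-knockout and wild-type pools and -0.09 between the double-knockout and MDR2-knockout pools. The 12 stellate cell and fibroblast markers summed to 11538 in the double-knockout and 7605 in the GHR-knockout pool, against 8996 in the MDR2-knockout and 6214 in the wild-type pool. Their medians in the same comparisons were 0.27 and 0.14, and their sums also lay higher without GHR in either background. The median of their limma average effects of GHR loss was -0.0019, however, against 0.078 over all genes. Single markers differed in direction, with Lum at 0.28 and 1.16 in the 2 comparisons and Dpt at 0.26 and -0.50. At 1.5-fold 1 was higher and 0 lower in the first comparison, and 3 were higher and 1 lower in the second. The limma fit called 0 of the 12 for GHR loss. The 7 cholangiocyte markers measured, genes of the bile duct lining, summed to 1743 in the double-knockout and 510 in the GHR-knockout pool, against 801 in the MDR2-knockout and 515 in the wild-type pool. All 7 were at least 1.5-fold higher in the double-knockout than in the MDR2-knockout pool, with a median of 1.0. Between the GHR-knockout and wild-type pools 1 was higher and 1 lower, with a median of -0.06, which turned above 0 with hepatocyte centring. Only 2 of the 7 passed the level filter there, and the median gene, Cftr, was 22 against 23. The higher gene was Prom1, at 110 against 39, which is also on the female-biased list read below. The 8 macrophage markers had medians of 0.53 between the GHR-knockout and wild-type pools and 0.19 between the double-knockout and MDR2-knockout pools. The 6 lung markers summed to 485 in the double-knockout and 303 in the GHR-knockout pool, against 400 in the MDR2-knockout and 298 in the wild-type pool, and 2 of them reached an intensity of 100. The surfactant gene Sftpd was 176 in the double-knockout and 52 in the GHR-knockout pool, against 108 in the MDR2-knockout and 45 in the wild-type pool. It rose with MDR2 loss, at a limma adjusted p of 0.0273, and its adjusted p for GHR loss was 0.372. The surfactant gene Sftpa1 was 119 in the double-knockout and 87 in the GHR-knockout pool, against 115 in the MDR2-knockout and 81 in the wild-type pool. The other 4 were at most 90, among them the surfactant gene Sftpc at most 31 and the club cell gene Scgb1a1 at most 14. Endothelial, stellate cell, cholangiocyte, macrophage and lung markers thus differed between pools beside Fmo2, and their part in the Fmo2 result was not tested.

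Fmo5 encodes the family member that oxygenates ketones to esters more readily than the usual amines and sulfides. Its intensity was 7676 in the MDR2-knockout pool, against 5487 in the wild-type pool, a log2 difference of 0.48 or 1.40-fold. In the pools without GHR it was 7227 in the double-knockout, against 4953 in the GHR-knockout pool, a log2 difference of 0.55 or 1.46-fold. Both values without MDR2 lay above both values with it. Neither difference reached 1.5-fold, which 6.09% of 10258 genes did upwards between the MDR2-knockout and wild-type pools and 9.95% of 10514 genes between the double-knockout and GHR-knockout pools. At least as much higher as Fmo5 were 8.41% of genes in the comparison without the GHR-knockout pool and 10.7% in the comparison with it. Many genes thus differed as much as Fmo5 did.

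With GHR loss Fmo5 differed by less than the typical spread. It was 4953 in the GHR-knockout pool, against 5487 in the wild-type pool, a log2 difference of -0.15, and 7227 in the double-knockout pool, against 7676 in the MDR2-knockout pool, a log2 difference of -0.09. The order was MDR2-knockout, double-knockout, wild type and GHR-knockout, with neither the higher pair nor the lower pair separated beyond the typical spread. Fmo5 was also the most nearly additive of the 4 genes: 6929 would follow from adding the single losses, and 7227 was measured, a departure of 0.06.

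In the additive limma fit the average effect of MDR2 loss on Fmo5 was 0.51 ± 0.14 (SE), or 1.43-fold, with an unadjusted p of 0.0118 and an adjusted p of 0.109. That fit called 322 genes higher with MDR2 loss, or 2.99%, and 82 lower, or 0.762%. The average effect of GHR loss on Fmo5 was -0.12 ± 0.14 (SE), with a limma adjusted p of 0.762. The 14 hepatocyte markers measured, read beside Fmo5 as a gene of hepatocytes, had a median log2 difference of -0.01 between the MDR2-knockout and wild-type pools, which turned above 0 with median centring. Their summed intensity was 141891 in the double-knockout, 136994 in the GHR-knockout, 140909 in the MDR2-knockout and 143342 in the wild-type pool.

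The start region of Fmo5 is shown for contrast with Fmo2, as that of the gene that went with MDR2 rather than GHR status. It lies on the plus strand at chr3:97628769-97629068 (RefSeq, GRCm38.p6).
Fmo5 start: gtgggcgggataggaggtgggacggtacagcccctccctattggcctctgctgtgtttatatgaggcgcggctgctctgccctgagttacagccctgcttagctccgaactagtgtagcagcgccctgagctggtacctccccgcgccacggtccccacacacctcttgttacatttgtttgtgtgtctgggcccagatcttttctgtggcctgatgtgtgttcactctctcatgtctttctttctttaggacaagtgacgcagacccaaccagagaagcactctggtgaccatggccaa
It held 56.0% G and C, against 41.3% and 47.7% in the Fmo2 regions and a median of 52.7% over all such regions, and none of the 4 motifs. The region of Fmo4 had 42.7% G and C and none of the 4 motifs either.

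Fmo1 encodes a broad-range enzyme that also turns hypotaurine into taurine. Its difference with GHR loss had opposite signs in the 2 backgrounds, in each beyond the typical spread. With MDR2 intact its intensity was 5213 in the GHR-knockout pool, against 3678 in the wild-type pool, a log2 difference of 0.50 or 1.42-fold. With MDR2 absent it was 3034 in the double-knockout pool, against 4375 in the MDR2-knockout pool, a log2 difference of -0.53, or 1.44-fold lower. Of the genes compared, 6.45% were at least as much higher in the first comparison and 4.74% at least as much lower in the second. Xist was 1400 and 16 in the pools of the first comparison and 17 and 18 in those of the second, so the higher Fmo1 level was seen in the comparison that includes the pool with Xist.

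The order was GHR-knockout, MDR2-knockout, wild type and double-knockout, and neighbours in it differed by little more than the typical spread. Read by MDR2 status, Fmo1 was 4375 in the MDR2-knockout pool, against 3678 in the wild-type pool, at a log2 difference of 0.25, near the robust SD. It was 3034 in the double-knockout pool, against 5213 in the GHR-knockout pool, 1.72-fold lower. The difference was past 1.5-fold, as were 9.89% of genes downwards between these pools. Adding the single losses would have put the double-knockout pool at 6201, more than its 3034. The departure was -1.03, or -3.17 robust SDs of departures, and 1.91% of 10764 genes departed by at least 1 log2 unit downwards. A departure has no test here, since 4 arrays leave no residual for it. The average effects in the additive limma fit were -0.01 ± 0.26 (SE) for GHR loss and -0.27 ± 0.26 (SE) for MDR2 loss, with adjusted p of 0.990 and 0.586. Non-additivity of a gene enters its own error in that fit.

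Fmo4 encodes the least studied of these enzymes. Its intensity was 539 in the GHR-knockout pool, against 332 in the wild-type pool, a log2 difference of 0.70 or 1.62-fold, and 2.59% of genes were at least as much higher. With MDR2 absent it was 341 in the double-knockout pool, against 347 in the MDR2-knockout pool, a log2 difference of -0.03 that turned above 0 with centring on hepatocyte markers. The MDR2-knockout and wild-type pools, at 347 and 332, differed by 0.06, and the double-knockout pool was 1.58-fold lower than the GHR-knockout pool. The GHR-knockout pool thus stood alone above 3 pools that lay within the typical spread of each other, and it is the pool with Xist. The departure from additivity was -0.72, or -2.23 robust SDs. The limma average effects were 0.34 ± 0.21 (SE) for GHR loss and -0.30 ± 0.21 (SE) for MDR2 loss, with adjusted p of 0.539 and 0.439.

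**Figure D3:**
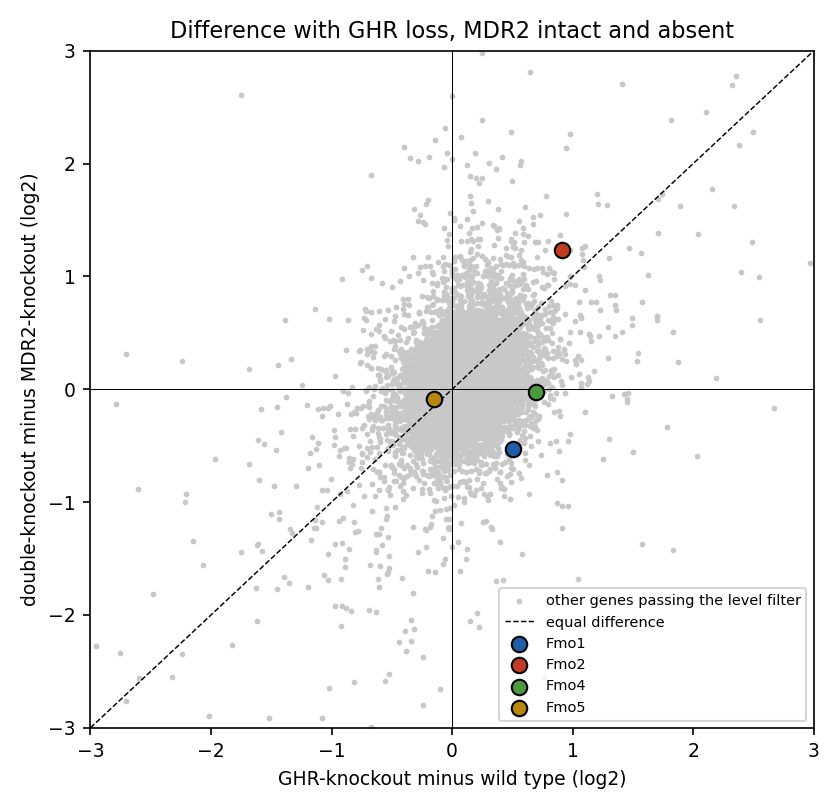
Log2 difference with GHR loss where MDR2 is intact (horizontal axis, GHR-knockout minus wild type) against that where MDR2 is absent (vertical axis, double-knockout minus MDR2-knockout); grey points are the other genes that reached an intensity of 100, the dashed line marks equal differences, and 46 genes beyond 3 log2 units on either axis are not drawn. Fmo2 is above 0 on both axes, at 0.91 and 1.24, Fmo5 is near 0 on both, Fmo4 is to the right at 0.70, and Fmo1 lies at 0.50 and -0.53, on opposite sides of 0.

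Between the double-knockout and wild-type pools, which differ in both genes, Fmo2 was 2.48-fold higher at 528, against 213. In that comparison 6.88% of 10487 genes were at least 2-fold higher. Fmo5 was 1.32-fold higher and Fmo1 1.21-fold lower, and Fmo4 was 341 in the double-knockout pool, against 332 in the wild-type pool. These values share their arrays with the comparisons above and are not further evidence for them. Counted at 1.5-fold, 2 of the 4 members were higher in the GHR-knockout than in the wild-type pool, where 4.25% of all genes were. In the double-knockout pool 1 was higher than in the MDR2-knockout pool, with 7.15% of all genes, and in the MDR2-knockout pool none was higher than in the wild-type pool, with 6.09% of all genes. Downwards, Fmo1 at 1.72-fold and Fmo4 at 1.58-fold were lower in the double-knockout than in the GHR-knockout pool, where 9.89% of all genes were. With limma at an adjusted p under 0.05, none of the 4 was called for either loss. Without adjustment, Fmo2 for GHR loss and Fmo5 for MDR2 loss had limma p-values under 0.05, as had 13.1% and 23.6% of all genes for these effects.

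In the RefSeq gene table (GRCm38.p6), Fmo4, Fmo1 and Fmo2 follow one another on chromosome 1 among the genes measured here, and Fmo5 is on chromosome 3. Although neighbours, the 3 genes had different patterns: all were higher in the GHR-knockout than in the wild-type pool, at 0.70, 0.50 and 0.91, and they parted between the double-knockout and MDR2-knockout pools, at -0.03, -0.53 and 1.24. Prrc2c, the gene next to Fmo4, was 715 in the double-knockout and 639 in the GHR-knockout pool, against 530 in the MDR2-knockout and 563 in the wild-type pool. Vamp4, a vesicle fusion gene further out on that side, was 404 to 434 in all pools. On the other side Mroh9 and Mettl11b were at most 28, below the level filter, and Prrx1 at most 89. Beside Fmo5, Chd1l was 133 to 139, and Prkab2, a subunit of the energy sensor AMPK, was 132 in the double-knockout, 95 in the GHR-knockout, 97 in the MDR2-knockout and 70 in the wild-type pool. Fmo9, a further family member on chromosome 1, was 39 to 53, below the level filter in all pools. Of the 3 further family members listed, only Fmo9 had a row with exactly 1 symbol, so the others could not be read here.

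Genes that supply or share the work of these enzymes were read from fixed lists. Over all genes without a level filter, 2.59% were at least 1.5-fold higher and 1.67% lower in the GHR-knockout than in the wild-type pool, 4.48% higher and 2.32% lower in the double-knockout than in the MDR2-knockout pool, 4.15% higher and 2.04% lower in the MDR2-knockout than in the wild-type pool, and 6.54% higher and 5.71% lower in the double-knockout than in the GHR-knockout pool. The medians of all genes in these comparisons were 0.05, 0.00, 0.00 and -0.02. Of 13 genes of NADPH supply, 1 was higher in the GHR-knockout than in the wild-type pool, 1 was higher and 1 lower in the double-knockout than in the MDR2-knockout pool, and 1 was lower in the MDR2-knockout than in the wild-type pool. Between the double-knockout and GHR-knockout pools 1 was higher and 3 were lower. The list medians were -0.08, which turned above 0 with the filter at the 75th percentile, -0.03, which did so with hepatocyte centring, -0.28 and -0.41. Idh2, the mitochondrial NADPH-forming isocitrate dehydrogenase, had a pattern by GHR status, at 1665 in the double-knockout and 1597 in the GHR-knockout pool, against 1033 in the MDR2-knockout and 992 in the wild-type pool. Me1, the cytosolic malic enzyme, was 1077 in the double-knockout and 2694 in the GHR-knockout pool, against 1841 in the MDR2-knockout and 2845 in the wild-type pool. No gene of the list passed the limma test for either loss.

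For the flavin cofactor, 3 genes of 5 were measured. Rfk, riboflavin kinase, was 825 in the double-knockout pool, 1323 in the GHR-knockout, 1064 in the MDR2-knockout and 1013 in the wild-type pool. Slc25a32, the mitochondrial carrier linked to FAD and folate, was 656 in the double-knockout and 565 in the GHR-knockout pool, against 365 in the MDR2-knockout and 470 in the wild-type pool. Of 13 genes of sulfur amino acids and taurine, 1 was 1.5-fold lower in the GHR-knockout than in the wild-type pool and the same number in the double-knockout than in the MDR2-knockout pool, with list medians of 0.10 and -0.27, the first of which turned below 0 with median centring. The member was in both cases Csad, the decarboxylase that forms hypotaurine. It was 162 in the GHR-knockout pool, against 749 in the wild-type pool, 4.62-fold lower, and 400 in the double-knockout pool, against 759 in the MDR2-knockout pool, 1.90-fold lower. Its limma adjusted p for GHR loss was 0.173. Fmo1, which takes hypotaurine further, was higher in the first of these comparisons and lower in the second. Cdo1, the cysteine dioxygenase at the head of the pathway, was 6877 in the double-knockout, 7163 in the GHR-knockout, 5659 in the MDR2-knockout and 6961 in the wild-type pool. Between the double-knockout and GHR-knockout pools 1 of the 13 was higher and 5 were lower, with a median of -0.08. Of 11 genes of choline and amine handling none was 1.5-fold apart with GHR loss in either background, nor between the MDR2-knockout and wild-type pools. The sarcosine dehydrogenase gene Sardh was 2723 in the double-knockout pool, against 4302 in the GHR-knockout pool, 1.58-fold lower. None of the 11 passed the limma test.

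Other drug-oxidising enzymes split. Of 16 oxidases and hydrolases outside the P450 family, 2 were higher and 2 lower in the GHR-knockout than in the wild-type pool, and 1 was higher and 3 lower in the double-knockout than in the MDR2-knockout pool, with medians of 0.08 and -0.26, the first of which turned below 0 with median centring. With MDR2 loss, 1 was higher in the MDR2-knockout than in the wild-type pool, and 6 were lower in the double-knockout than in the GHR-knockout pool, with medians of -0.13 and -0.25. The aldehyde oxidase Aox3 was 2796 in the GHR-knockout pool, against 6040 in the wild-type pool, 2.16-fold lower. Without the pool that holds Xist the difference was under 1.5-fold, with 3538 in the double-knockout pool, against 4926 in the MDR2-knockout pool. The fatty aldehyde dehydrogenase Aldh3a2 was 2781 in the GHR-knockout pool, against 1251 in the wild-type pool. It was 1813 in the double-knockout pool, against 1347 in the MDR2-knockout pool. The alcohol dehydrogenase Adh4 was lower in both comparisons, at 2302 in the GHR-knockout pool, against 4268 in the wild-type pool, and at 1304 in the double-knockout pool, against 3884 in the MDR2-knockout pool. None of the 16 passed the limma test. Of 19 microsomal P450 and partner genes, 3 were higher and 1 lower in the GHR-knockout than in the wild-type pool, and 3 were higher and 3 lower in the double-knockout than in the MDR2-knockout pool. With MDR2 loss, 3 were lower in the MDR2-knockout than in the wild-type pool, and 2 were higher and 7 lower in the double-knockout than in the GHR-knockout pool, with medians of -0.26 and -0.40. Cyp2b9 and Cyp2c37 passed the limma test as higher with GHR loss, with average effects of 5.45 and 2.51 and adjusted p of 0.0169 and 0.00793. Both effects use the GHR-knockout pool with Xist. Cyp2b9, also on the female-biased list, was 5952 in that pool and 1162 in the double-knockout pool. It was 51 in the MDR2-knockout and 71 in the wild-type pool. Cyp2c29 passed the limma test as lower with MDR2 loss, at -0.93 with an adjusted p of 0.0381.

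Among 22 measured regulators of liver and drug-metabolism genes, 3 were higher and 2 lower by 1.5-fold in the GHR-knockout than in the wild-type pool, and 2 were higher and 2 lower in the double-knockout than in the MDR2-knockout pool. Between the double-knockout and GHR-knockout pools 2 were higher and 5 lower, with a median of -0.19. None passed the limma test. Onecut1, a growth hormone-dependent liver factor, was 218 in the double-knockout and 248 in the GHR-knockout pool, against 436 in the MDR2-knockout and 1150 in the wild-type pool. Nr1i3, the drug-sensing receptor CAR, was 1493 in the double-knockout and 2371 in the GHR-knockout pool, against 991 in the MDR2-knockout and 1329 in the wild-type pool. Nfe2l2, the gene of NRF2, was 2157 in the double-knockout, 1382 in the GHR-knockout, 1883 in the MDR2-knockout and 912 in the wild-type pool.

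Sex-biased liver genes differed in the comparisons for GHR loss beside the Fmo genes, and male-biased genes also between the MDR2-knockout and wild-type pools. Among 17 female-biased genes measured, 14 passed 1.5-fold upwards in the GHR-knockout than in the wild-type pool and none lower, with a median of 2.87 and 15 of the 17 past the level filter. Between the double-knockout and MDR2-knockout pools 11 were higher and none lower, with a median of 1.0 and 9 of the 17 past the filter. That median and some of the 11 rest on genes below the filter. Cyp2b13, the median gene, was 28 against 14, and Hao2 was 48 against 23, whereas Sult1e1 was 1845 against 36. Of 17 male-biased genes, 14 were lower in the first and 11 in the second comparison, with medians of -1.61 and -1.43. In the MDR2-knockout pool 7 of them were lower than in the wild-type pool and 2 higher, with a median of -0.30. Of all genes 2.04% were lower and 4.15% higher there. In the double-knockout pool 3 were lower than in the GHR-knockout pool and 5 higher. With limma, 5 of 15 female-biased genes that passed the level filter rose with GHR loss and 8 of 16 male-biased genes fell. With MDR2 loss, 2 of the 16 fell and 1 rose. The limma fit and the first comparison use the GHR-knockout pool, with Xist at 1400. There GHR loss and the female signal of the pool cannot be told apart. Cyp2b13 was 2545 in the GHR-knockout and 28 in the double-knockout pool, and Hao2 was 1507 and 48, while Sult1e1 was 1114 and 1845. In the double-knockout pool 10 of the 17 female-biased genes were lower than in the GHR-knockout pool and 1 was higher, with a median of -0.83. Fmo2 was higher there, at 0.40. It thus went with the female-biased genes in both comparisons for GHR loss, and not between these 2 pools without GHR. Fmo1, known as higher in females, went with the female-biased genes in the comparison for GHR loss that includes the pool with Xist. It did not in the other, and it was lower with them between the pools without GHR, at -0.78.

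**Figure D4:**
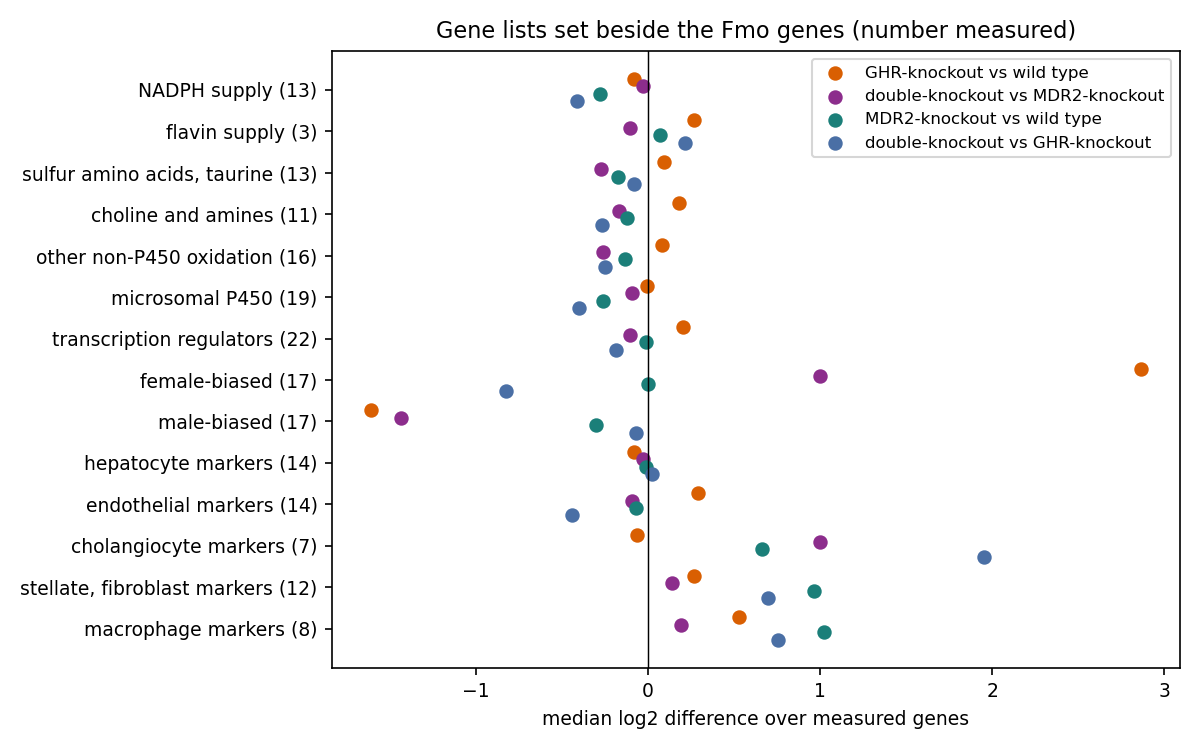
Median log2 difference (horizontal axis) of the measured genes of 14 lists in 4 comparisons between pools, with the number measured in brackets. The lists of NADPH supply, flavin supply, substrates, other oxidases, P450 genes and regulators lie between -0.41 and 0.27, while the female-biased list reaches 2.87 and the male-biased list -1.61 in the GHR-knockout against wild-type comparison.

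Markers of other liver cells also differed with MDR2 loss, beside the Fmo5 result. Cholangiocyte markers, whose sums stand beside Fmo2 above, had medians of 0.66 between the MDR2-knockout and wild-type pools and 1.95 between the double-knockout and GHR-knockout pools. The 8 macrophage markers summed to 10328 in the double-knockout and 7951 in the MDR2-knockout pool, against 5067 in the GHR-knockout and 3593 in the wild-type pool. Lyz2 alone was 5243, 2879, 977 and 847 in these pools. At 1.5-fold 6 of the 8 were higher and 0 lower in the MDR2-knockout than in the wild-type pool, with a median of 1.02. In the double-knockout pool 5 were higher and 1 lower than in the GHR-knockout pool, with a median of 0.76. With limma, 1 of 7 cholangiocyte, 5 of 12 stellate cell or fibroblast and 3 of 7 tested macrophage markers rose with MDR2 loss. The part of these cells in the Fmo5 level was not tested.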

How the data were processed

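Deposited values are intensities, 1 for each probe set on each array. The authors made these intensities, per the submitters' processing notes, with RMA (background correction, quantile normalization and probe summary) in Affymetrix Expression Console 1.1; they are whole numbers on a linear scale (6 to 22355), so log2 was taken here. The authors' normalization was kept. A genome build and detection calls are not given in the sources used here. GEO's platform annotation gave 21789 of 35556 rows exactly 1 symbol, and a gene with several rows (999 of 19938) took the row with the highest mean. No scanner files were used.

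Differences were taken between single arrays. A gene entered a comparison where its higher array reached an intensity of 100. The test was limma 3.58.1 in R 4.3.3 (lmFit, eBayes, additive GHR and MDR2 factors, Benjamini-Hochberg adjustment). It was tried on simulated data in which an effect was equal in both backgrounds. That trial does not cover genes that depart from additivity. An exact permutation of 2 against 2 arrays could not go below p = 0.333 and was not used. Alternatives were other level filters, a 1.5-fold threshold, cyclic loess, median and hepatocyte centring, the mean of all rows, an offset of 16 and eBayes with trend and robust settings. Sequences were matched by symbol to RefSeq (GRCm38.p6), and 3 of the 4 members matched.

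Members and the 20 gene lists were chosen with earlier results of these data known. Named genes are the members, other family members measured, Ghr, Abcb4, Xist, Y-linked genes, up to 4 genes per list with the largest differences, the 5 genes nearest in pattern to a member spanning at least 1 log2 unit, and the 3 nearest measured genes on each side of a member. Cdo1, Sftpc, Scgb1a1 and Cyp2c29 lie outside that rule and were named after their values were seen. Rows with several symbols or none (1621 and 12146) were left out.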

Additional observations from a re-analysis of the deposited data

Results flagged for a closer look

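Fmo1 and Fmo4 had differences of opposite sign in the 2 backgrounds. For Fmo1 the log2 difference with GHR loss was -0.53 where MDR2 was absent and 0.50 where it was intact, and that with MDR2 loss was -0.78 where GHR was absent and 0.25 where it was intact, so the difference of differences was -1.03 either way. For Fmo4 it was -0.72: the difference with GHR loss was -0.03 where MDR2 was absent and 0.70 where it was intact, and that with MDR2 loss was -0.66 where GHR was absent and 0.06 where it was intact. These differences between backgrounds were not tested, since each rests on 1 array per genotype, and both include the GHR-knockout pool with Xist at 1400. The Fmo4 values of -0.03 and 0.06 lie within the typical spread of 0.23.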

How the results depend on the processing

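Level filters and the mean of all rows leave the log2 values of a gene with 1 row as they are, so 4 alternatives bear on the members' differences. All 96 values of the members' pairwise differences and departures from additivity recomputed under these 4 moved by less than the robust SD. Of 24 recomputed pairwise differences of at least 1.5-fold, 22 stayed past it; the exceptions were Fmo4 at 0.578 between the GHR-knockout and wild-type pools with median centring and at -0.568 between the double-knockout and GHR-knockout pools with cyclic loess. Only the near-zero Fmo4 differences changed sign, to -0.02 between the double-knockout and wild-type pools with median centring and to 0.04 between the double-knockout and MDR2-knockout pools with hepatocyte centring. The median of all genes shifted by -0.12 with median centring between the GHR-knockout and wild-type pools. The Fmo2 adjusted limma p for GHR loss ranged from 0.0661 to 0.518 and the Fmo5 one for MDR2 loss from 0.0826 to 0.327 over 8 alternatives. The Fmo1 average effect of GHR loss turned to 0.012 with cyclic loess and 0.057 with hepatocyte centring. Without the GHR-knockout array, an alternative chosen after seeing the data that leaves no residual and so no test, the GHR loss values were -0.53 for Fmo1, 1.24 for Fmo2, -0.025 for Fmo4 and -0.087 for Fmo5, and the MDR2 loss values 0.25, 0.07, 0.064 and 0.48. Directions of Fmo4 for both losses and of Fmo1 for MDR2 loss therefore rest on that array.

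At 1.5-fold, 427 genes were higher and 249 lower in the GHR-knockout than in the wild-type pool, against which the MDR2-knockout pool had 625 and 366. The double-knockout pool had 752 and 409 against the MDR2-knockout pool, 1046 and 1040 against the GHR-knockout pool, and 1435 and 796 against the wild-type pool. At 2-fold, the last 4 of these comparisons had 241 genes higher and 78 lower, 243 and 164, 496 and 327, and 721 and 312. A filter at the 75th percentile (intensity 329) left 106 and 54, 115 and 128, 225 and 264, and 338 and 241 at 2-fold, so that lower genes outnumbered higher ones in the double-knockout against both the MDR2-knockout and the GHR-knockout pool. Median centring gave 85 higher and 121 lower at 2-fold between the GHR-knockout and wild-type pools, in place of 107 and 99, and 185 and 189 between the double-knockout and MDR2-knockout pools. With limma, GHR loss gave 22 genes higher and 34 lower and MDR2 loss 322 and 82. The 75th percentile filter gave 11 and 21, and 57 and 12. With no filter it gave 0 in all 4 directions, with 1828 genes for GHR loss and 2928 for MDR2 loss at an unadjusted p under 0.05, over 19938 genes. Higher calls with GHR loss were 13 with cyclic loess, 14 with median centring and 13 with hepatocyte centring, the last with 16 lower. Lower calls with MDR2 loss were 37, 50 and 31 in that order, and higher calls 185 with hepatocyte centring. The cause was not tested. No paired analysis was possible because each genotype has 1 array.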
